A study of Mus musculus with 6 samples.

Results

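The T cell receptor and T cell identity genes described here are Cd3d, Cd3e, Cd3g, Trac, Trbc2, Cd4, Cd8a, Cd8b1, Il7r and Foxp3, a set of 10 given by symbol. All 10 had a row among the 23508 genes of the count table and all 10 passed the filter on low counts, with 16755 genes in all. RNA was sequenced from 6 mouse tumors of 4T1, a mammary carcinoma line used to model triple-negative disease. Of these, 3 tumors were collected before neural activity recorded in the tumor first peaked (before-peak replicates 1, 2 and 3) and 3 on the day of that first peak (with-peak replicates 1, 2 and 3). The comparison asks how tissue RNA differs when that activity sets in, which the series title traces to sympathetic nerves. All groups share the 4T1 tumor, and the labels name no host strain, sex, age, treatment or tumor age, so the time of collection and the peak cannot be told apart. Whether each tumor had its own host is not stated, so the p-values cover just the spread from sample to sample, which may be technical.

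An alpha beta T cell recognises peptide on major histocompatibility molecules through a receptor made of an alpha and a beta chain, whose constant parts are encoded by Trac and by Trbc1 or Trbc2. The receptor chains have no signalling tails and depend on the CD3 chains (Cd3d, Cd3e, Cd3g) and the zeta chain (Cd247). The kinase Lck phosphorylates these signalling chains, and the kinase Zap70 is recruited to them. CD4 marks helper and regulatory T cells, CD8 marks cytotoxic T cells, the interleukin-7 receptor (Il7r) sustains naive and memory T cells, and FOXP3 is the defining transcription factor of regulatory T cells. In bulk tissue, fewer T cells and less RNA per T cell cannot be told apart.

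The promoters of the Cd3 genes and of Foxp3 are shown because the Cd3 genes followed each other across the 6 tumors while Foxp3 did not follow them. The Cd3 genes lie within 40056 bases of chromosome 9, where Cd3g and Cd3d are transcribed away from each other with 1354 bases between them. Each sequence is 300 bases of RefSeq's GRCm38.p6 assembly (mm10), from 250 bases before to 50 after a RefSeq start, in the gene's direction. For Foxp3 the window lies inside the gene as GENCODE M21 places it, which begins at base 7573644. Capitals mark matches on either strand to an ETS core (AGGAAG), a RUNX core (TGTGGT), a TCF/LEF core (CTTTGA) or an E-box of the form CAGNTG. No matches overlapped in these promoters.
Cd3g, chr9:44980382-44980681, minus strand: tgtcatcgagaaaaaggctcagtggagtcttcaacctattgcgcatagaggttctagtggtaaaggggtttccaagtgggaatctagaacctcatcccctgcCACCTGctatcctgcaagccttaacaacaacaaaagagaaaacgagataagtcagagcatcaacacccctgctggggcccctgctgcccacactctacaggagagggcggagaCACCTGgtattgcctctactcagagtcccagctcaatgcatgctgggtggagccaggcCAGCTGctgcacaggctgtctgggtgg
Cd3d, chr9:44981536-44981835, plus strand: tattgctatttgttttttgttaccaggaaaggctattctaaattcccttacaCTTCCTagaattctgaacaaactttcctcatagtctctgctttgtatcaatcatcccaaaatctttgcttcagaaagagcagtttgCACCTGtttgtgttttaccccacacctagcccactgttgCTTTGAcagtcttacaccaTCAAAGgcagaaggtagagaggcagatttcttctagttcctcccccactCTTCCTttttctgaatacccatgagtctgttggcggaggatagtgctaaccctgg
Cd3e, chr9:45009562-45009861, minus strand: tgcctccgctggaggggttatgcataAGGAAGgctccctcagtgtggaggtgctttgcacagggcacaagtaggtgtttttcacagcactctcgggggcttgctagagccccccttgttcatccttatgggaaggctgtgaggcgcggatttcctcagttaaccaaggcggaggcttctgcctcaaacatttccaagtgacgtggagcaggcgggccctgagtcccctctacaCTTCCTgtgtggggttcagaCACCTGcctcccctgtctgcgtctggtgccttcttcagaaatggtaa
Foxp3, chrX:7579426-7579725, plus strand: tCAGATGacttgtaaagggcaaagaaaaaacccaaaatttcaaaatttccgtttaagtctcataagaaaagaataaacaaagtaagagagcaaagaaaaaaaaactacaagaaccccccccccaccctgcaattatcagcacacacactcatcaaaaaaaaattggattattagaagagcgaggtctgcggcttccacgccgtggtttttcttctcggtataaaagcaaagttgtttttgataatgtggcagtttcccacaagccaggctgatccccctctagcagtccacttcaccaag

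The ETS core matched 2 times in each of the Cd3d and Cd3e windows and 0 times in the Cd3g window and the Foxp3 window shown, where 35.4% of all 32851 RefSeq promoter windows of this length hold it. The TCF/LEF core matched 2 times in the Cd3d window and in no other window shown, against 16.0% of all windows. The E-box matched 3 times in the Cd3g window and 1 time in each of the Cd3d, Cd3e and Foxp3 windows, against 51.4% of all windows. The RUNX core matched none of the windows shown, against 16.8% of all. The promoter table matched 6 of the 10 genes, and it lists another start for Foxp3, whose window is not shown and held 1 ETS and 2 E-box matches. These matches describe the letters of each window only.

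No T cell gene passed the test between with-peak and before-peak tumors. The test was edgeR's quasi-likelihood test with p-values adjusted over all 16755 genes at a threshold of 0.05, which called 0 of the 10 genes and 0% of all genes. At an unadjusted p under 0.05 there were 0 of the 10, beside 9.50% of all genes, and 0 of the 10 had groups that did not overlap, beside 15.5% of all genes. DESeq2 called 0 of the 10 and 1.36% of the 19357 genes it gave an adjusted p, Cd4 being the gene of the set to which it gave none. The data instead show a wide spread inside the before-peak group. All 10 genes were highest in before-peak replicate 3, which held the highest level of 17.1% of all genes tested, and 7 of the 10 were lowest in before-peak replicate 1, which held the lowest level of 14.2% of all. The CPM of the 10 genes (counts scaled to a common library size with TMM) summed to 25.7, 58.6 and 237 in the before-peak tumors in replicate order, and to 79.5, 62.0 and 82.9 in the with-peak tumors. The with-peak tumors thus lay close together and inside the before-peak range.

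**Figure D1:**
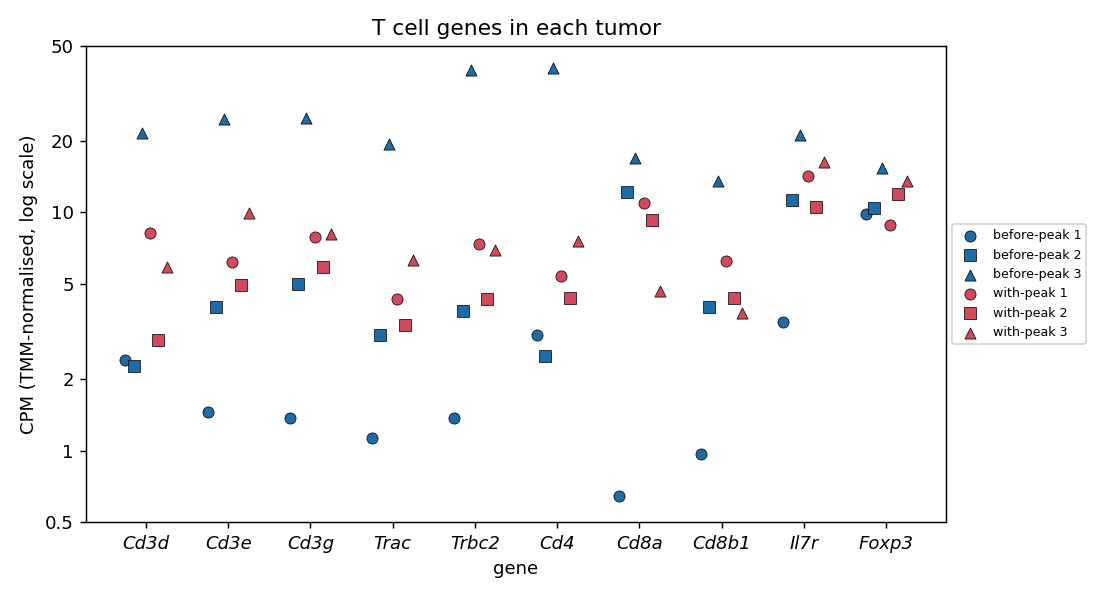
CPM (TMM-normalised, log scale) of each of the 10 T cell genes in each tumor, with blue for before-peak, red for with-peak and a marker shape for the replicate number. Before-peak replicate 3 (blue triangles) is the highest tumor for every gene, and Foxp3 has the narrowest range, from 8.84 to 15.4 CPM.

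The libraries held 10591067 to 14549357 counts, so a gene at 1 CPM rests on few counts. The carcinoma markers Krt8 and Krt18, keratins of simple epithelia, were at 1059 to 1716 and 848 to 1424 CPM over the 6 tumors, and none of the 12 epithelial genes was at 0. Within-group pairs of libraries gave chi-square values, divided by their degrees of freedom, of 17.1 to 28.9, so none was counted as a duplicate. Before-peak replicate 3 stands apart for lymphoid genes, and the fold changes of the 10 genes and the medians of the T cell and lymphoid lists are given with and without it.

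Among the signalling chains, Cd3d (delta chain, chromosome 9, 44981786 to 44987339) was at 2.41, 2.27 and 21.5 CPM in the before-peak tumors in replicate order and at 8.21, 2.90 and 5.92 CPM in the with-peak tumors. Its lowest with-peak tumor lay above before-peak replicates 1 and 2, and its highest lay well below before-peak replicate 3. The log2 fold change of with-peak over before-peak was -0.61 (standard error, SE, 0.99; edgeR adjusted p = 0.881), with a 95% interval from -3.07 to 1.84. Cd3e (epsilon chain, chromosome 9, 44998740 to 45009627) was at 1.44, 3.99 and 24.7 CPM before the peak and 6.17, 4.94 and 9.89 CPM with it, in the order of the replicates. It shares 135 exon bases with the opposite-strand gene Gm48719, which had 5, 19 and 103 counts before the peak and 44, 12 and 21 with it, and the libraries carry no strand, so reads there cannot be told apart. Cd3g (gamma chain, chromosome 9, 44969572 to 44980431) was at 1.36, 5.01 and 24.997 CPM before the peak and 7.86, 5.88 and 8.15 CPM with it. For both genes before-peak replicate 1 was lowest and the with-peak tumors lay between before-peak replicates 2 and 3, with edgeR log2 fold changes of -0.52 (Cd3e, SE 1.02, adjusted p = 0.903) and -0.52 (Cd3g, SE 0.97, adjusted p = 0.899). Before-peak replicate 3 exceeded the next highest tumor by 2.62-fold for Cd3d, 2.49-fold for Cd3e and 3.07-fold for Cd3g.

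The receptor chains followed the same pattern. Trac (alpha constant gene, chromosome 14, 54220521 to 54224206) had 14, 39 and 232 counts before the peak and 62, 43 and 65 with it, or 1.12, 3.05 and 19.3 CPM and 4.35, 3.37 and 6.31 CPM. Trbc2 (a beta constant gene, chromosome 6, 41546730 to 41548352) was at 1.36, 3.84 and 39.7 CPM before the peak and 7.36, 4.31 and 6.98 CPM with it. The before-peak tumors spanned a 29.1-fold range for Trbc2, and the with-peak tumors lay inside it. The log2 fold changes were -0.75 for Trac (SE 1.00, edgeR adjusted p = 0.849) and -1.26 for Trbc2 (SE 1.26, edgeR adjusted p = 0.795). Trbc1, the near-identical beta constant gene, had 20, 57 and 340 counts before the peak and 102, 66 and 53 with it, and how reads were divided between these copies is not given, so the Trbc2 level is uncertain to that extent.

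Variable segments of the receptor chains, named here after their values were seen, gave few counts. The table holds 14 beta and 7 alpha V segments. Counts over these 21 segments summed to 15, 52 and 287 in the before-peak tumors in replicate order and to 78, 34 and 37 in the with-peak tumors. All 21 had at least 1 count in before-peak replicate 3, against 7 to 15 segments in the other tumors. Trbv12-2 and Trbv16 had counts in that tumor alone (6 and 9). Only 5 of the 23508 genes had no count in any tumor, so a segment without counts would rarely have a row. Finding all 21 in that tumor is thus partly set by which segments have a row. The number seen moves with the number of receptor counts, so it is no measure of how many clones were present. The gamma and delta constant genes Trdc, Tcrg-C1, Tcrg-C2 and Tcrg-C4, of the other T cell lineage, summed to 6, 32 and 31 counts before the peak and 26, 20 and 16 with it. Before-peak replicates 2 and 3 were thus nearly level in gamma delta counts, while the alpha and beta constant genes summed to 145 and 1048 there. Of the 11 gamma delta T cell genes listed, 8 were in the table and 3 were tested, and 0 passed over all genes, with a median log2 fold change of 0.16, or 0.26 without before-peak replicate 3.

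The coreceptors differed in how they ordered the tumors. Cd4 (chromosome 6, 124864692 to 124888221) was at 3.05, 2.51 and 40.2 CPM before the peak and 5.40, 4.39 and 7.57 CPM with it. Before-peak replicate 3 was 5.32-fold above the next highest tumor, and every with-peak tumor lay above before-peak replicates 1 and 2. The log2 fold change was -1.40 (SE 1.19, edgeR adjusted p = 0.766). Cd8a (alpha chain of CD8, chromosome 6, 71373427 to 71379173) was at 0.642, 12.2 and 16.9 CPM before the peak and 10.9, 9.32 and 4.66 CPM with it. Here before-peak replicate 2 was the second highest tumor, above every with-peak tumor, and before-peak replicate 1 rested on 8 counts. Cd8b1 (beta chain of CD8, chromosome 6, 71322788 to 71337494, 35932 bases from Cd8a) was at 0.963, 3.99 and 13.5 CPM before the peak and 6.24, 4.39 and 3.78 CPM with it. The log2 fold changes were -0.25 for Cd8a (SE 0.98, edgeR adjusted p = 0.955) and -0.35 for Cd8b1 (SE 0.82, edgeR adjusted p = 0.919).

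The balance of CD8 and CD4 counts differed between tumors by more than counting error. Cd8a took 17.4% of Cd8a and Cd4 counts in before-peak replicate 1 (exact Clopper-Pearson 95% interval 7.82% to 31.4%, 46 counts), 83.0% in before-peak replicate 2 (76.8% to 88.1%, 188 counts) and 29.6% in before-peak replicate 3 (26.2% to 33.2%, 686 counts). In with-peak tumors it took 67.0% (60.5% to 73.0%), 68.0% (60.5% to 74.8%) and 38.1% (29.6% to 47.2%) in replicates 1, 2 and 3. Each group thus held tumors in which Cd4 counts exceeded Cd8a counts and tumors in which they did not. The mean share was 43.3% ± 34.9 in before-peak and 57.7% ± 17.0 in with-peak tumors (SD, n = 3), a difference within the spread (two-sided exact permutation p = 0.6, where 0.1 is the smallest possible). Cd8b1, which dendritic cells with CD8 alpha chains lack, took 24.0%, 61.4% and 25.1% of Cd8b1 and Cd4 counts before the peak and 53.6% and 33.3% in with-peak replicates 1 and 3, with equal counts of both genes in with-peak replicate 2 (exact permutation p = 0.6; 0.6 after adjustment over both shares). The order of the tumors was close to that of the Cd8a share, with before-peak replicate 2 highest and before-peak replicate 1 lowest in both. These intervals cover counting error only.

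**Figure D2:**
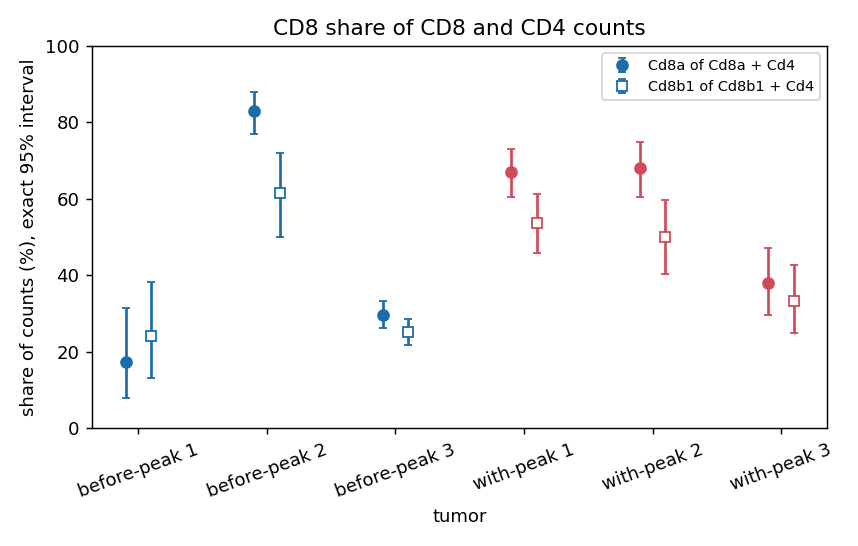
Share of Cd8a in Cd8a plus Cd4 counts (filled circles) and of Cd8b1 in Cd8b1 plus Cd4 counts (open squares) in each tumor, in percent, with exact 95% intervals from counting error; blue is before-peak and red is with-peak. The Cd8a share runs from 17.4% to 83.0% within the before-peak group, and the with-peak tumors lie between.

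CD8 alpha chains also occur on some dendritic cells. The 14 dendritic cell genes summed to 809, 1692 and 1442 CPM before the peak and 2472, 2089 and 1664 CPM with it. The sum was led by the major histocompatibility class II genes H2-Ab1 and H2-Aa. Macrophages and B cells also express these, so the sum is not a level of dendritic cells alone. H2-Ab1 was at 150, 453 and 418 CPM before the peak and 722, 658 and 489 CPM with it (edgeR adjusted p = 0.613). It was the 1 gene of the 14 whose groups did not overlap, beside 15.5% of all genes. The groups of H2-Aa overlapped. Of the 14, 8 had a positive log2 fold change and 0 passed over all genes, with a median of 0.07, or 0.16 without before-peak replicate 3. None of the 14 was at 0 in any tumor, and their part in the Cd8a values was not tested. Cd8b1 counts per Cd8a count, scaled by exon length, were 3.68, 0.802 and 1.96 in the before-peak tumors in replicate order and 1.40, 1.15 and 1.99 in the with-peak tumors. Before-peak replicate 2, the tumor with the highest CD8 share, had the lowest Cd8b1 level relative to Cd8a.

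Il7r (chromosome 15, 9505788 to 9530176) was at 3.45, 11.3 and 21.2 CPM before the peak and 14.2, 10.6 and 16.2 CPM with it. It was the gene of the set with a positive log2 fold change, 0.19 (SE 0.58, 95% interval from -1.21 to 1.59, edgeR adjusted p = 0.940), and before-peak replicate 3 stood 1.31-fold above the next highest tumor. Il7r had 2.39, 2.82 and 0.858 counts per Cd3e count in the before-peak tumors in replicate order and 2.30, 2.14 and 1.64 in the with-peak tumors. This ratio was lowest in before-peak replicate 3, where Cd3e, its denominator, was itself highest. It shows only that Il7r rose less than Cd3e in that tumor.

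Genes of the interleukin-7 and common gamma chain pathway were split in direction. Of 18 listed, 16 were tested, 8 had a positive and 8 a negative log2 fold change, 0 passed over all genes, and the median was 0.00 beside -0.02 over all genes tested, or 0.22 without before-peak replicate 3. Jak3, the kinase bound by the common gamma chain, was at 161, 203 and 159 CPM before the peak and 135, 114 and 119 CPM with it. Its groups did not overlap, and edgeR gave -0.50 on the log2 scale with SE 0.13 and adjusted p = 0.289. Il15ra, the interleukin-15 receptor alpha chain, was at 13.1 ± 4.68 and 21.5 ± 3.58 CPM (SD, n = 3; edgeR log2 fold change 0.71, adjusted p = 0.454). The ligand gene Il7 was at 3.05, 4.85 and 2.42 CPM before the peak and 2.81, 5.25 and 4.75 CPM with it, and was chosen after its values were seen.

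Foxp3 (chromosome X, 7573644 to 7595245) varied least of the set, at 9.87, 10.4 and 15.4 CPM before the peak and 8.84, 12.0 and 13.5 CPM with it. Its highest tumor was 1.74-fold above its lowest, where the other 9 genes spanned 6.13-fold to 29.1-fold. The log2 fold change was -0.06 (SE 0.26, 95% interval from -0.64 to 0.52, edgeR adjusted p = 0.958), so this is the gene of the set for which the data bound a difference most closely. Before-peak replicate 1 had 123 counts of Foxp3 beside 18 of Cd3e, while before-peak replicate 3 had 185 beside 296. Foxp3 counts per Cd3e count were thus 6.83 and 0.625 in these tumors. The Foxp3 level is therefore not read here as a level of regulatory T cells, and which cells gave its counts was not tested.

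Other regulatory T cell genes differed among themselves. Of 12 listed, 10 were tested, 6 had a positive and 4 a negative log2 fold change, 0 passed over all genes, and the median was 0.01, or 0.39 without before-peak replicate 3 with 8 of 11 positive. The highest members by mean level were Lrrc32, the surface receptor of latent transforming growth factor beta, at 39.4 ± 7.39 and 47.8 ± 6.90 CPM, Ikzf2, the transcription factor Helios, at 21.8 ± 6.86 and 19.2 ± 4.97 CPM, and Tigit, an inhibitory receptor, at 20.3 ± 9.98 and 20.4 ± 2.60 CPM (SD, n = 3). Ctla4 and Icos, receptors carried by regulatory and activated T cells and chosen after their values were seen, had wider ranges than Foxp3. Ctla4 was at 0.321, 3.05 and 4.50 CPM before the peak and 2.17, 1.10 and 3.98 CPM with it, and Icos at 0.722, 4.31 and 9.25 CPM and 3.65, 1.88 and 7.18 CPM. In before-peak replicate 1 both were at their lowest while Foxp3 was not.

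Foxp3 counts are uncertain for another reason. In the GENCODE M21 annotation its exons share 590 bases with Ccdc22 and 266 with Ppp1r3f, both on the opposite strand, and 853 with Flicr, and the libraries carry no strand. Ccdc22 had 7, 21 and 5 counts before the peak and 2, 3 and 4 with it, and Ppp1r3f 14, 19 and 13 and then 23, 24 and 26. Whether reads of these genes were counted for Foxp3 was not tested.

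Per kilobase of exon, the mean with-peak level was highest for Trbc2, at 8.99 ± 2.41 CPM per kilobase, followed by Trac at 4.999 ± 1.60 (SD, n = 3). Cd8b1 (3.24 ± 0.86), Cd3d (3.13 ± 1.47), Il7r (2.93 ± 0.61), Foxp3 (2.499 ± 0.52), Cd8a (2.28 ± 0.90), Cd3g (2.23 ± 0.38), Cd3e (1.72 ± 0.63) and Cd4 (1.43 ± 0.40) came next in CPM per kilobase. The values of neighbours in this order overlapped over the 3 with-peak tumors in every case, so the order of adjacent genes is not resolved. Before the peak the SD exceeded the mean for Cd3d, Cd3e, Cd3g, Trac, Trbc2, Cd4 and Cd8b1.

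Leaving out before-peak replicate 3 turned the direction of 9 of the 10 genes, and Il7r was already positive. The median log2 fold change of the 10 genes was -0.52 over all 6 tumors and 1.10 without that tumor, beside -0.02 and 0.00 over all genes tested. Without it, Cd3e was higher with peak by a log2 fold change of 1.35 (95% interval 0.24 to 2.47), Cd3d by 1.28, Trbc2 by 1.25, Cd3g by 1.19, Trac by 1.15 and Cd4 by 1.05. These values did not pass over all genes, with edgeR adjusted p of 0.372 to 0.459. The changes of Cd8b1, Il7r, Cd8a and Foxp3 were 0.95, 0.89, 0.37 and 0.17 (edgeR adjusted p = 0.598, 0.546, 0.937 and 0.873). Every with-peak tumor lay above before-peak replicates 1 and 2 for 6 of the 10 genes, namely the Cd3 genes, Trac, Trbc2 and Cd4, beside 14.9% of all genes tested. At an unadjusted p under 0.05, 5 of the 10 were higher with peak without that tumor, beside 7.33% of all genes. At an adjusted p under 0.05, edgeR called 0 of the 10, beside 0.0752% of all genes. The tumor left out was the highest for all 10 genes, so its removal moved each of their changes upward by construction. All genes tested were not selected in this way, so the shares beside them do not test an excess among the T cell genes. The 10 genes are read out from the same 5 tumors and are not replicates of each other.

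**Figure D3:**
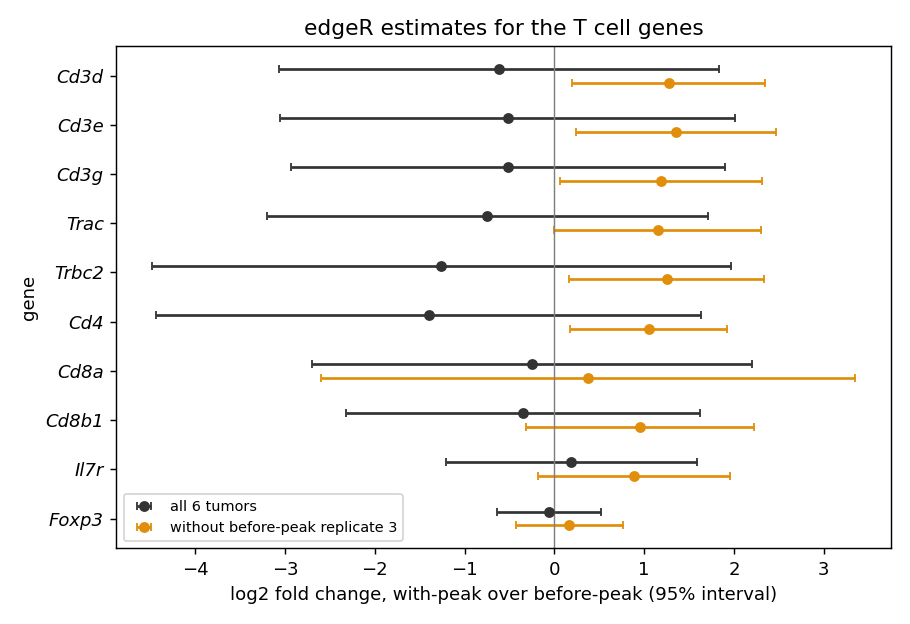
Log2 fold change of with-peak over before-peak tumors from edgeR for each T cell gene, with 95% intervals, over all 6 tumors (black) and without before-peak replicate 3 (orange). Estimates for 9 of the 10 genes lie below 0 over all tumors and all 10 lie above 0 without that tumor.

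Leaving out before-peak replicate 1, the tumor with the fewest T cell counts, turned Il7r alone (-0.25). All 10 log2 fold changes were then negative, with a median of -1.04. The tumor left out was the lowest for 7 of the 10 genes, so its removal moved their changes downward by construction. Cd8a was then at -0.80 (SE 0.37, edgeR adjusted p = 0.641) and Cd4 at -1.89 (SE 1.07, edgeR adjusted p = 0.725). For 9 of the 10 genes the sign of the difference between the groups thus depended on before-peak replicate 3. Leaving out before-peak replicate 2 turned none. The sign also turned for Cd8a without with-peak replicate 3 (0.032) and for Foxp3 without with-peak replicate 1 (0.10). Alternative models turned some genes as well, as given at the end.

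The T cell receptor signalling list also turned direction with before-peak replicate 3. Of 28 listed, 25 were tested, 22 had a negative log2 fold change, 0 passed, and the median was -0.66, or 0.56 without before-peak replicate 3 with 20 of 25 positive. Before-peak replicate 3 was highest for 22 of the 25. Lck, the kinase that phosphorylates the CD3 chains, was at 3.29, 6.11 and 40.1 CPM before the peak and 13.1, 8.07 and 11.8 CPM with it, and Zap70, the kinase recruited to them, at 0.722, 3.44 and 13.4 CPM and 5.47, 3.13 and 2.72 CPM, both chosen after their values were seen. Rasgrp1, which activates Ras below the receptor, had the smallest p of the list, at 16.7 ± 11.7 and 8.74 ± 1.08 CPM (SD, n = 3; edgeR log2 fold change -0.93, adjusted p = 0.571). Without before-peak replicate 3 its log2 fold change was -0.19 (edgeR adjusted p = 0.850). Ptprc, the CD45 phosphatase of all leukocytes, was at 82.4, 93.7 and 270.0 CPM before the peak and 125, 117 and 130.3 CPM with it. Before-peak replicate 3 was thus also the tumor with the highest Ptprc. The factor over the next highest tumor was smaller than for Trbc2, Cd4, Trac or the Cd3 genes. It was near that of Cd8b1 (2.16-fold) and larger than for Cd8a (1.38-fold), Il7r (1.31-fold) or Foxp3 (1.14-fold). Plcg1, a phospholipase expressed widely, was at 84.3 ± 6.79 and 76.0 ± 4.01 CPM.

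Of 16 T cell transcription factors, all tested, 14 had a negative log2 fold change, 0 passed, and the median was -0.53, or 0.11 without before-peak replicate 3. Tox, a factor of exhausted and developing T cells, was at 0.722, 2.66 and 3.92 CPM before the peak and 0.631, 0.548 and 1.26 CPM with it (edgeR log2 fold change -1.59 with SE 0.67 and adjusted p = 0.511). Tcf7, a factor of naive and memory T cells chosen after its values were seen, was at 6.98, 7.59 and 62.6 CPM before the peak and 10.1, 9.01 and 22.6 CPM with it. Of 12 homing receptors, 11 were tested, 6 had a positive log2 fold change and 0 passed with edgeR, with a median of 0.09, or 0.59 without before-peak replicate 3 with 9 of 11 positive.

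Markers of other cell types moved with before-peak replicate 3. All 18 B cell genes were highest there and had a negative log2 fold change, 0 passing over all genes, and their CPM summed to 65.7, 32.9 and 1022 before the peak and to 109, 123 and 217 with it, with none at 0. Without before-peak replicate 3 all 18 were positive, and the median log2 fold change turned from -1.84 to 1.56. Ighm, the immunoglobulin mu constant gene, was at 14.9, 8.30 and 154 CPM before the peak and 29.7, 45.2 and 69.7 CPM with it. Of the 10 lymph node stroma genes tested, of 14 listed, 8 were highest in before-peak replicate 3, and the median log2 fold change was -0.16, or 1.41 without that tumor with 10 of 10 positive. That list's genes summed to 50.7, 28.0 and 238 CPM before the peak and 73.7, 89.1 and 87.2 CPM with it, and Ccl19, Lta, Glycam1, Madcam1, Clec4g and Chst4 had 0 counts in at least 1 tumor. The list includes Ltb and Lta, cytokine genes that lymphocytes express, so the sum is not a level of stroma alone. Ltb was at 83.2 CPM in before-peak replicate 3 and at 10.7 to 17.2 CPM in the other tumors. Glycam1 encodes a glycoprotein made by lymph node vessels and also by mammary epithelium. It was at 41.4 CPM in before-peak replicate 3, 1.93 CPM in before-peak replicate 1 and 2.67, 0.235 and 6.50 CPM with the peak. In before-peak replicate 2 it had 0 counts, which allows up to 0.235 CPM. Their part in the T cell values was not tested.

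Natural killer, macrophage and carcinoma genes did not show that excess. The 14 natural killer genes in the table summed to 21.3, 63.7 and 62.0 CPM before the peak and 123, 99.0 and 52.5 CPM with it. Of the 13 tested, 12 had a positive log2 fold change, 0 passed over all genes, and 1 was highest in before-peak replicate 3. Gzmb, a granzyme of killer cells that cytotoxic T cells also express, was at 2.57, 6.73 and 3.83 CPM before the peak and 30.0, 14.6 and 7.37 CPM with it. Its groups did not overlap (edgeR log2 fold change 1.99 with SE 0.57 and adjusted p = 0.390), and DESeq2 called it. The 16 macrophage genes summed to 2351 to 3760.0 CPM before the peak and 4337 to 6127 CPM with it, none being highest in before-peak replicate 3. Log2 fold changes were positive for all 16 (median 0.74). With edgeR 0 of them passed over all genes and 14 were under 0.05 before adjustment, beside 9.50% of all genes, while DESeq2 called 7, beside 1.36% of all genes. The 12 epithelial genes summed to 3817 to 4985 CPM before the peak and 3157 to 4647 CPM with it, and 10 of the 12 had a negative log2 fold change. With edgeR 0 of them passed over all genes, while DESeq2 called 1, the basal keratin gene Krt5.

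**Figure D4:**
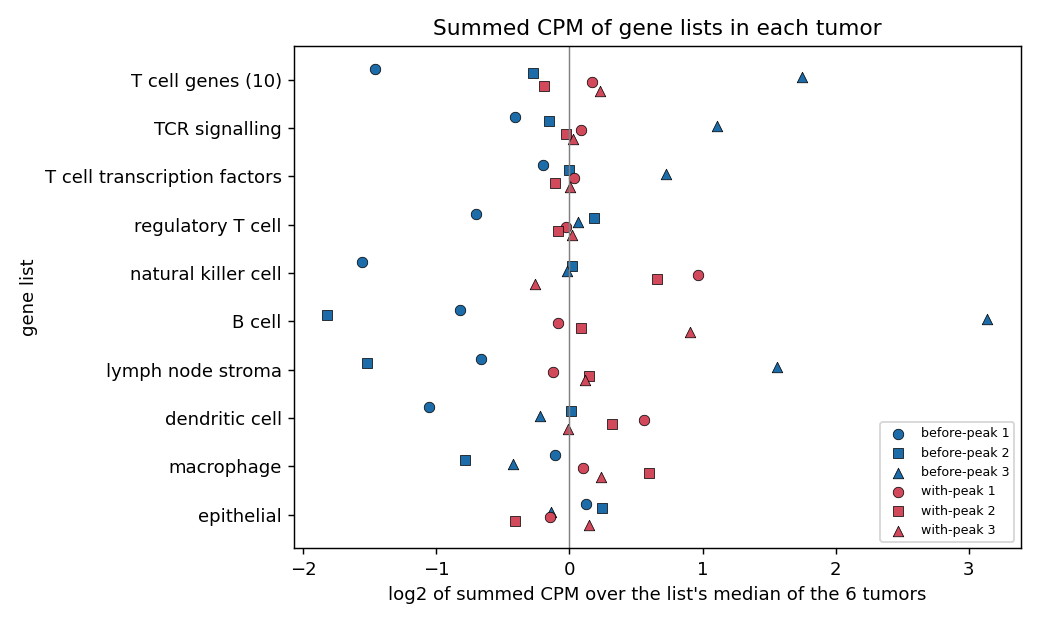
Summed CPM of each gene list in each tumor, as log2 relative to the list's median over the 6 tumors; blue is before-peak, red is with-peak, and the marker shape gives the replicate number. Before-peak replicate 3 (blue triangles) lies far to the right for the 10 T cell genes, T cell receptor signalling, T cell transcription factor, B cell and lymph node stroma lists. It does not for the summed regulatory T cell, natural killer, macrophage or epithelial lists. The regulatory T cell sum is weighted to its highest genes, Lrrc32, Ikzf2 and Tigit, while 5 of its 10 tested genes were highest in that tumor. The lymph node stroma sum includes Ltb and Lta, which lymphocytes express.

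The genes outside all lists whose profile over the 6 tumors was most like the mean of the 10 T cell genes were Gimap1os, Fcho1, Cyfip2, Clec2i, Il27ra, Slamf6, Serpina1b, Trbc1, 5830418P13Rik and D130040H23Rik. Likeness was the root mean square difference of centred log2 CPM, which ran from 0.17 for Gimap1os to 0.33 for D130040H23Rik. Slamf6, a receptor of lymphocytes, was at 2.09, 4.15 and 28.2 CPM before the peak and 6.17, 4.54 and 6.69 CPM with it. Cyfip2 was at 3.93, 7.05 and 42.2 CPM before the peak and 13.9, 10.5 and 11.3 CPM with it. Of the 10 T cell genes themselves, Cd3g (0.19), Trac (0.22), Cd3e (0.27) and Cd8b1 (0.29) lay closest to their mean profile on that log2 scale, and Foxp3 (0.86) and Cd8a (0.90) lay farthest from it.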

How the data were processed

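Frozen tumor tissue gave RNA by Trizol, which was oligo(dT)-selected for unstranded paired-end sequencing, per the labels' protocols. The authors deposited raw counts per gene, whole numbers without normalization. FastQC, STAR and mm10 are named per the submitters' processing notes; no source used here names the counter, its annotation or its handling of shared reads. Of 23508 Ensembl identifiers, 23479 matched GENCODE M21 (GRCm38), the source of symbols, coordinates and exon lengths.

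Counts were scaled by TMM, filtered with filterByExpr (minimum count 10, minimum total 15) and tested with edgeR 4.0.16 (glmQLFit, robust, two-sided) in R 4.3.3, with Benjamini-Hochberg adjustment over 16755 genes. DESeq2 1.42.0 and limma 3.58.1 were alternatives, beside other scalings and filters, a replicate block and leaving out each library. The SE is the log2 fold change divided by the square root of F. The test was first run on simulated data.

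The members and lists were chosen with earlier results of these data known. Genes named from lists are up to 3 with the smallest p-values and up to 3 with the highest mean CPM; others are marked as chosen after their values were seen. Some results are not reported here.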

Additional observations from a re-analysis of the deposited data

How the results depend on the processing

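Scaling by RLE or library size alone, both filters and DESeq2 kept the direction of all 10 T cell genes, and no alternative called any of them. The median log2 fold change of all genes reached -0.07 with library size alone and lay nearer 0 under the others. Over all genes, no filter on low counts called 29, DESeq2 263, and the replicate block 1; leaving out 1 library called 0 to 17. Why these counts differ was not tested. Replicate numbers carry no stated pairing, and deviations of same-numbered tumors correlated at -0.06, -0.10 and 0.03. With the replicate block, 6 genes changed direction: Cd3d (0.053), Cd3e (0.25), Cd3g (0.25), Cd8a (0.19), Cd8b1 (0.20) and Trac (0.042). With limma-voom 7 did: Cd3d (0.12), Cd3e (0.34), Cd3g (0.39), Cd8a (0.65), Cd8b1 (0.37), Trac (0.15) and Trbc2 (0.051). Leaving out each library in turn, the median of the 10 log2 fold changes ran from -1.04 to 1.10, the highest without before-peak replicate 3. The ranges were -1.07 to 1.28 for Cd3d, -1.04 to 1.35 for Cd3e, -1.04 to 1.19 for Cd3g, -1.91 to 1.05 for Cd4, -0.80 to 0.37 for Cd8a, -0.86 to 0.95 for Cd8b1, -1.26 to 1.15 for Trac, -1.80 to 1.25 for Trbc2, -0.25 to 0.89 for Il7r and -0.19 to 0.17 for Foxp3. In before-peak replicate 1 the genes other than Foxp3 rest on 8 (Cd8a) to 43 (Il7r) counts, so counting error limits the lowest values.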
